A study of Homo sapiens with 9 samples.

Results

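The endothelin 1 group comprised 4 genes: EDN1, which encodes the precursor of the peptide endothelin 1, its receptors EDNRA and EDNRB, and the converting enzyme gene ECE1. They were taken by symbol from the 60606 genes of the expression table. The genes were chosen by measured values of these libraries, since EDN1 had been seen to rise most in glioblastoma stem cells and to stay raised after their differentiation, so the levels of EDN1 are given as a description without a test. Total RNA was sequenced in 9 libraries of U87, an established human glioblastoma cell line, 3 in each of 3 groups. U87 cells were the parental line, kept in medium with 10% fetal bovine serum. GSCs were radioresistant glioblastoma stem cells obtained from U87 in serum-free medium with B27, 20 ng/ml EGF and 20 ng/ml bFGF and irradiated in 13 cycles of 5 Gy. Diff cells were radioresistant glioblastoma cells differentiated from those GSCs in medium with 10% serum, from selected clonal communities. Selection, radiation and, for GSCs, the medium therefore differ together between the groups and cannot be told apart. The methods speak of biological replicates in general, but nothing ties this to the 3 libraries of a group or says that they came from separate cultures, so the p-values measure only the spread between these libraries.

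Values are TPM, a transcript level corrected for length and scaled so that each library sums to 1000000, so the sequencing depth is unknown and no counting interval can be given. Differences are between group means of log2(TPM + 1), a scale that understates the change of genes under a few TPM. They were tested with limma over the 22909 genes with a mean above 1 TPM, and p-values were adjusted by the Benjamini-Hochberg method. A gene is said to have risen or fallen at an adjusted p below 0.05, and is counted as called when the log2 difference also exceeded 1 in size. The median difference of all tested genes was 0.02 between GSCs and U87, -0.04 between Diff cells and U87 and -0.06 between Diff cells and GSCs. Mitochondrial transcripts made up 25.9% to 31.8% of a library, and RN7SL1, a small cytoplasmic RNA, 5.73% to 9.79%. Of the stem cell markers, SOX2 was between 0.809 and 0.994 TPM in GSCs and between 0 and 0.115 TPM in U87, and PROM1 was between 0.379 and 0.596 TPM in GSCs and between 0.121 and 0.238 TPM in U87, so both were below 1 TPM in every library. FABP7, a fatty acid binding protein of radial glia, rose against U87 by 1.77 on the log2 scale in GSCs (adjusted p = 2.66e-05) and by 1.16 in Diff cells (adjusted p = 0.000483). NES, the gene of the stem cell filament nestin, fell against U87 by 0.53 in GSCs (adjusted p = 0.000470) and by 1.23 in Diff cells (adjusted p = 4.02e-06), and VIM, the gene of the filament vimentin, fell by 1.41 in Diff cells (adjusted p = 1.84e-06). Of 10 glioblastoma and stem cell markers, 6 were tested, of which 1 was called higher in GSCs, and 1 higher and 2 lower in Diff cells, compared with U87. Among all tested genes, 9.52% were called higher and 7.53% lower in GSCs, and 5.92% higher and 6.36% lower in Diff cells.

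Endothelin 1 is one of the strongest vasoconstrictor peptides and is best known as a product of the blood vessel lining. It is made as a long precursor, cut by furin-type proteases to big endothelin 1 and then by endothelin converting enzyme to the active peptide. EDNRA, the receptor of smooth muscle, couples to Gq and calcium release, and EDNRB, found on endothelium and astrocytes, also clears the peptide. Neprilysin and other peptidases break it down.

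EDN1 lies on chromosome 6 of GRCh38, at chr6:12290363-12297194 on the plus strand, with 2033 exonic bases in GENCODE release 29, none of which overlap an exon of another gene. EDNRA lies at chr4:147480917-147544954 on the plus strand, EDNRB at chr13:77895481-77975529 on the minus strand and ECE1 at chr1:21217247-21345572 on the minus strand. The 63 bases that code for the mature peptide are shown for EDN1 and its paralogs EDN2 and EDN3, because the values below separate these 3 genes. They were read from the first coding transcript of each gene in GENCODE release 29, each 5′ to 3′, and the capitals mark the 4 cysteine codons that form the disulfide bridges of the peptide.
EDN1: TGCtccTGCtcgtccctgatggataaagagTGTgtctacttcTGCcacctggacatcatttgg
EDN2: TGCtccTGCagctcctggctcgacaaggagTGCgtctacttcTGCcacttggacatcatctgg
EDN3: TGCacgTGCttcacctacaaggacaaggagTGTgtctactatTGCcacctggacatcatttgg
In this stretch EDN2 shared 51 and EDN3 shared 50 of the 63 bases with EDN1.

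EDN1 was below 1 TPM in U87 and high in GSCs, and it stayed above the U87 level in Diff cells. It measured 0.519, 0.496 and 0.622 TPM in the 3 U87 libraries. It measured 193, 177 and 219 TPM in the GSCs libraries, and 40.1, 41.0 and 33.1 TPM in the Diff libraries. The 3 groups did not overlap, and the order GSCs, Diff cells, U87 held for every pair of libraries. The means were 0.546 ± 0.0672 TPM in U87, 197 ± 21.1 TPM in GSCs and 38.1 ± 4.32 TPM in Diff cells (SD, n = 3 each). The mean TPM in GSCs was 360 times that of U87, with 285 and 442 as the smallest and largest ratio between single libraries. In Diff cells it was 69.8 times that of U87, between 53.2 and 82.7 for single libraries, and GSCs exceeded Diff cells 5.16 times. On the log2(TPM + 1) scale EDN1 differed by 6.99 in GSCs and by 4.66 in Diff cells from U87, and by -2.34 in Diff cells from GSCs. On that scale the first was the largest rise among the 22909 tested genes, and the rise in Diff cells held place 15. These places depend on the scale. By the ratio of mean TPM, NOS3, at 0.0213 to 0.127 TPM in U87, was 585 times U87 in GSCs, above the 360 of EDN1. Among 19060 protein-coding genes, EDN1 ranked between 303 and 417 in the GSCs libraries, between 2697 and 3438 in the Diff libraries and between 12504 and 12786 in the U87 libraries.

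The other ligand genes were not detected at comparable levels. EDN2 was listed at 0 in 8 of the 9 libraries and at 0.282 TPM in Diff replicate 1. EDN3 was listed at 0 in all 9 libraries. EDN1 was thus the only endothelin gene above 1 TPM in any library.

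EDNRA, the receptor that mediates contraction in smooth muscle, was lower in both derived lines than in U87, the opposite of its ligand. It measured 16.9, 14.6 and 13.4 TPM in U87, 7.98, 7.56 and 11.0 TPM in GSCs and 5.43, 5.74 and 5.79 TPM in Diff cells. No library of one group overlapped another group, with U87 highest and Diff cells lowest. EDNRA fell by 0.71 on the log2 scale in GSCs against U87 (SE 0.14, adjusted p = 0.00274) and by 1.26 in Diff cells against U87 (SE 0.14, adjusted p = 0.000128). Diff cells also lay below GSCs, with a difference of -0.55 (SE 0.14, adjusted p = 0.0154). Without GSCs replicate 3, the highest of its group, this last difference was -0.40 (adjusted p = 0.0216), and over all single libraries left out its adjusted p did not exceed 0.0478, the value without Diff replicate 1.

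EDNRB, the receptor of endothelium and astrocytes, was close to absent. It measured 0.242, 0.154 and 0.181 TPM in U87. In GSCs it measured 0.0518 and 0.0466 TPM and was listed at 0 in replicate 3, and in Diff cells it was listed at 0 in replicates 1 and 2 and measured 0.0737 TPM in replicate 3. All U87 libraries were above all others, but at these levels the gene did not pass the expression filter and was not tested. With the filter removed, the fall was 0.21 in GSCs (adjusted p = 0.0123) and 0.22 in Diff cells (adjusted p = 0.0122), both against U87. EDNRA was therefore the receptor gene with the higher level in every library.

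ECE1, whose product cuts big endothelin 1 to the active peptide, was well expressed in all groups and lower in both derived lines. It measured 193, 177 and 191 TPM in U87, 101, 112 and 99.2 TPM in GSCs and 108, 105 and 105 TPM in Diff cells. The U87 libraries did not overlap the others, whereas GSCs and Diff cells overlapped. ECE1 fell by 0.84 in GSCs (SE 0.060, adjusted p = 6.03e-06) and by 0.81 in Diff cells (SE 0.060, adjusted p = 1.11e-05) against U87. Between Diff cells and GSCs the difference was 0.03, with a 95% interval from -0.11 to 0.17 (adjusted p = 0.736). Of the 3 members that passed the filter, EDN1 among them, 2 fell at an adjusted p below 0.05 in GSCs, against 23.3% of all tested genes that were lower and 25.3% that were higher at that threshold. In Diff cells the same 2 fell, against 20.5% lower and 18.9% higher among all tested genes. On the stricter rule that also asks for a log2 difference above 1, the backgrounds were 9.52% higher and 7.53% lower for GSCs over U87, 5.92% higher and 6.36% lower for Diff cells over U87, and 2.66% higher and 5.36% lower for Diff cells over GSCs.

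With the ligand higher and the receptor lower than in U87, the number of EDN1 transcripts per EDNRA transcript differed widely. It was 0.0306, 0.0339 and 0.0464 in the U87 libraries, 24.2, 23.4 and 20 in the GSCs libraries and 7.39, 7.15 and 5.72 in the Diff libraries. The groups did not overlap. Mainly EDN1, which was chosen for its rise, sets this ratio and the next, so both are descriptions and not separate results. Per ECE1 transcript, EDN1 was between 1.58 and 2.21 in GSCs, between 0.316 and 0.39 in Diff cells and between 0.00269 and 0.00325 in U87. ECE1 transcripts thus outnumbered those of EDN1 in U87 and Diff cells, but not in GSCs.

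Alternative converting enzymes were listed at low levels. ECE2, a related metalloprotease, was listed at 0 in 8 libraries and at 0.0268 TPM in U87 replicate 3. Of its exonic bases, 62.7% are shared with the readthrough gene EEF1AKMT4-ECE2, which was listed at 0 throughout. How reads from shared bases were counted is not given, so the level of ECE2 is uncertain. ECEL1, another relative, was listed at 0 in all libraries. CMA1, the mast cell chymase that can also release endothelin peptides, was between 0.270 and 0.966 TPM with overlapping groups. ECE1 was the only gene of these 4 to pass the filter. Its annotated antisense gene ECE1-AS1 was between 0.901 and 2.59 TPM, and 3.27% of the exonic bases of ECE1 lie opposite an exon of another gene, a small share whose part in the ECE1 values was not tested.

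Among 7 proprotein convertases, the family that makes the first cut, 5 were tested. In GSCs against U87, 2 were called higher and 1 lower, and in Diff cells none was called higher and 1 lower. The shares over all tested genes were 9.52% higher and 7.53% lower in GSCs, and 5.92% and 6.36% in Diff cells. FURIN, the ubiquitous member, rose by 0.54 in GSCs (adjusted p = 0.00326) and by 0.68 in Diff cells (adjusted p = 0.00120), from 36.1 to 47.3 TPM in U87 to between 56.2 and 69.4 TPM in GSCs. PCSK1, the convertase of neuroendocrine granules, rose by 1.32 in GSCs (adjusted p = 2.47e-05) and by 0.49 in Diff cells (adjusted p = 0.0105). PCSK4, best known from germ cells, rose by 1.20 in GSCs (adjusted p = 0.000754). PCSK5 was the exception, and fell by 1.42 in GSCs (adjusted p = 7.33e-05) and by 1.68 in Diff cells (adjusted p = 3.58e-05). It was between 2.61 and 3.46 TPM in U87 and below 1 TPM in every GSCs and Diff library.

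The main change among the peptide-degrading enzymes was in MME, the gene of neprilysin, a membrane peptidase that cleaves endothelin 1. It measured 21.6, 26.1 and 18.0 TPM in U87, 211, 193 and 258 TPM in GSCs and 128, 114 and 114 TPM in Diff cells, so that the 3 groups followed the same order as for EDN1 and did not overlap. MME rose by 3.28 in GSCs (SE 0.14, adjusted p = 3.63e-07) and by 2.40 in Diff cells (SE 0.14, adjusted p = 3.26e-06), and Diff cells lay below GSCs, with a difference of -0.88 (adjusted p = 0.00167). CTSA, whose product cathepsin A trims the end of the peptide, followed another pattern. It measured 143, 154 and 132 TPM in U87, 141, 145 and 125 TPM in GSCs and 311, 310 and 287 TPM in Diff cells, and rose in Diff cells by 1.08 against U87 (adjusted p = 9.45e-06) and by 1.14 against GSCs (adjusted p = 1.43e-05). IDE, the insulin-degrading enzyme, rose by 0.45 in Diff cells (adjusted p = 0.0101) and had a difference of 0.25 in GSCs (adjusted p = 0.0890), against U87. Without single libraries this second difference of IDE ranged from 0.13 to 0.33, and it passed the threshold without GSCs replicate 2 (adjusted p = 0.0395). KEL, a blood group antigen that can cleave big endothelins, was between 0.833 and 1.25 TPM in GSCs and below 1 TPM elsewhere. MMEL1, a neprilysin relative, did not exceed 0.150 TPM. Of the 5 enzymes, 3 were tested, 1 was called higher in GSCs and 2 in Diff cells against U87, and none was called lower in these comparisons. All tested genes gave 9.52% higher and 7.53% lower in GSCs, and 5.92% and 6.36% in Diff cells.

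**Figure D1:**
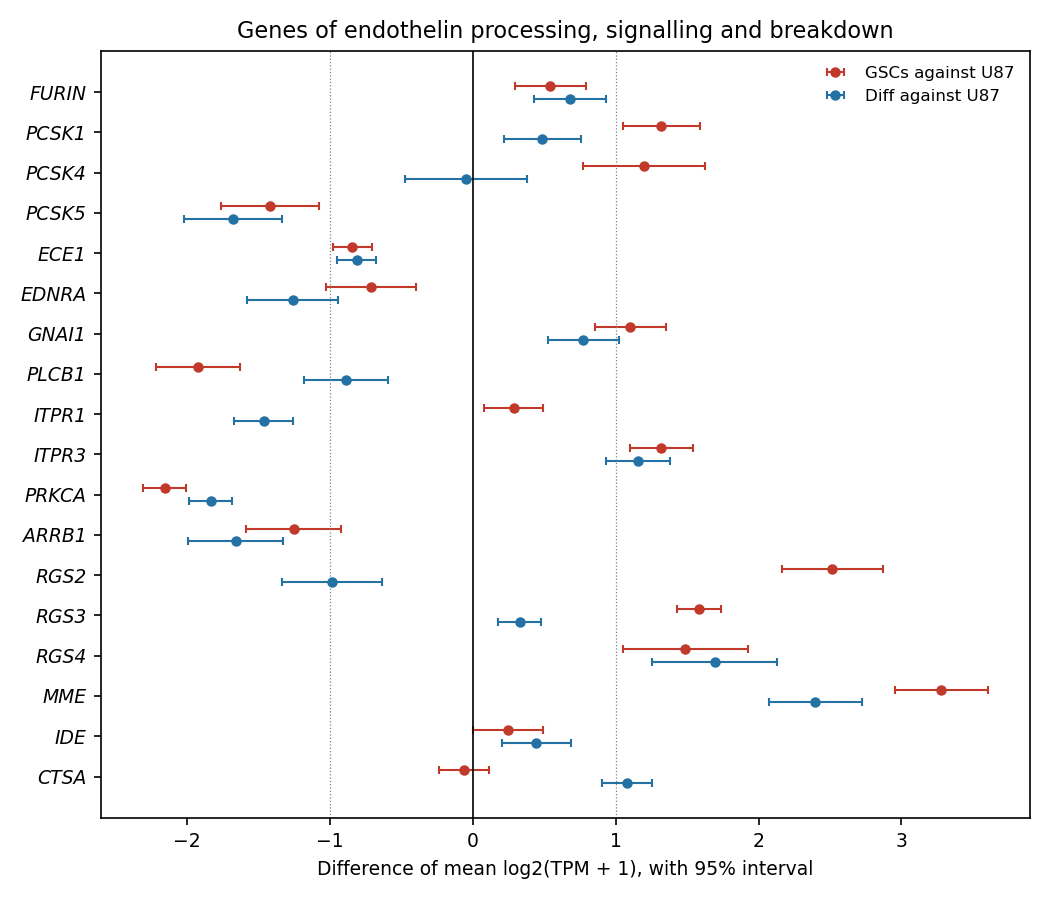
Difference of mean log2(TPM + 1) with its 95% interval for genes of endothelin processing, signalling and breakdown, in GSCs against U87 (red) and Diff cells against U87 (blue); the dotted lines mark differences of 1 in either direction. MME lies farthest to the right, at 3.28 in GSCs and 2.40 in Diff cells, while EDNRA and ECE1 lie to the left of 0 in both.

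Downstream of the receptors, most tested G protein genes changed by less than 1 on the log2 scale and a few effectors changed by more. Of 10 genes of G protein alpha subunits, 8 were tested, and all 8 passed an adjusted p below 0.05 in GSCs against U87, in both directions. At that threshold alone, 25.3% of all tested genes were higher and 23.3% were lower in GSCs. GNAI1, an inhibitory subunit, was the only G protein gene called, with a rise of 1.10 in GSCs against U87 (adjusted p = 4.49e-05). Of 16 effector genes, 14 were tested. Compared with U87, 1 was called higher and 2 lower in GSCs, and as many in Diff cells. The shares over all tested genes were 9.52% higher and 7.53% lower in GSCs, and 5.92% and 6.36% in Diff cells. PRKCA, the gene of protein kinase C alpha, measured 319, 320 and 286 TPM in U87, 63.2, 69.0 and 73.0 TPM in GSCs and 85.0, 85.0 and 86.8 TPM in Diff cells. It fell by 2.16 in GSCs (adjusted p = 5.99e-08) and by 1.83 in Diff cells (adjusted p = 2.08e-07). PLCB1, a phospholipase C that acts below Gq, fell by 1.92 in GSCs (adjusted p = 4.34e-06) and was higher in Diff cells than in GSCs by 1.03 (adjusted p = 0.000411). PLCB1 in Diff cells was still below U87, by 0.89 (adjusted p = 0.000632). Its level was between 4.59 and 5.09 TPM in U87 and between 0.442 and 0.688 TPM in GSCs.

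The calcium channels of the endoplasmic reticulum that respond to that phospholipase did not move together. ITPR3 rose by 1.32 in GSCs (adjusted p = 7.89e-06) and by 1.16 in Diff cells (adjusted p = 2.50e-05). ITPR1 fell by 1.46 in Diff cells against U87 (adjusted p = 4.02e-06) and by 1.75 against GSCs (adjusted p = 3.58e-06). The median difference over the 14 tested effectors was -0.19 in GSCs and -0.25 in Diff cells against U87.

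Of 12 genes of receptor kinases, arrestins and RGS proteins, which end G protein signalling, 11 were tested, and 3 were called higher and 1 lower in GSCs against U87. Over all tested genes these shares were 9.52% and 7.53%. RGS2, an inhibitor of Gq, measured 23.2, 22.9 and 23.1 TPM in U87, 119, 117 and 182 TPM in GSCs and 12.2, 10.3 and 11.0 TPM in Diff cells. It rose by 2.52 in GSCs (adjusted p = 2.59e-06) and fell by 0.98 in Diff cells (adjusted p = 0.00103), both against U87. RGS2 in Diff cells was therefore below the U87 level, whereas EDN1 was above it. RGS3 rose by 1.58 in GSCs (adjusted p = 3.10e-07) and Diff cells lay below GSCs, by -1.26 (adjusted p = 4.20e-06). RGS4 rose by 1.49 in GSCs (adjusted p = 0.000241) and by 1.69 in Diff cells (adjusted p = 0.000147). ARRB1, the gene of beta-arrestin 1, fell by 1.25 in GSCs (adjusted p = 0.000129) and by 1.66 in Diff cells (adjusted p = 3.19e-05). It was between 3.11 and 3.82 TPM in U87 and below 1 TPM in every GSCs and Diff library.

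The EDN1 promoter is shown because its known control elements can be read beside the levels of the factors that bind such elements. The 250 bases before the RefSeq start are at chr6:12290111-12290360 on the plus strand of GRCh38.p14, and that start, 1 of 3 listed for EDN1, lies 2 bases from the GENCODE start. The capitals mark every match, on either strand, to the motifs searched.
EDN1 promoter: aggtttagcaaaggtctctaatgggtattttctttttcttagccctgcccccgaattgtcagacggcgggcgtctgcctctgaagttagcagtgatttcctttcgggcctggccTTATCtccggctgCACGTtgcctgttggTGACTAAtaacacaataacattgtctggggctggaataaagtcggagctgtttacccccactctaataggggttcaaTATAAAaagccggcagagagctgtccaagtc
Counted back from the start, the TATA box TATAAA was found at -31 to -26, the AP-1 variant TGACTAA at -108 to -102, the hypoxia response core ACGTG on the opposite strand at -123 to -119 and the GATA motif GATAA on the opposite strand at -136 to -132. The consensus TGANTCA of AP-1 was not found in this window. Over 34788 distinct windows of the same length, TATAAA occurred in 10.8%, TGACTAA in 1.61%, ACGTG in 18.5%, GATAA in 20.5% and TGANTCA in 6.59%. No marked matches overlapped each other.

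Of 27 transcription factor genes known to act on EDN1, 26 were tested, and in GSCs against U87 3 were called higher and 3 lower. Over all tested genes, 9.52% were called higher and 7.53% lower in that comparison. Among AP-1 genes, FOS rose in GSCs by 2.02 (adjusted p = 0.000220), from 5.01 to 7.65 TPM in U87 to between 20.9 and 40.5 TPM, and Diff cells lay below GSCs, by -2.40 (adjusted p = 0.000187). FOS in Diff cells was between 3.65 and 5.93 TPM and overlapped U87. FOSB also rose in GSCs against U87, by 1.02 (adjusted p = 0.00104), and JUNB had a difference of 0.43 (adjusted p = 0.0723). The other AP-1 genes of the list, more abundant than FOS, fell in GSCs against U87. FOSL1 fell by 0.57 (adjusted p = 0.000358), FOSL2 fell by 0.32 (adjusted p = 0.000817), JUN fell by 0.36 (adjusted p = 0.00619) and JUND fell by 0.49 (adjusted p = 0.00102). FOXO1, a forkhead factor, rose by 1.44 in GSCs (adjusted p = 0.000203) and by 0.71 in Diff cells (adjusted p = 0.0130). GATA6 fell against U87 by 2.35 in GSCs (adjusted p = 3.91e-07) and by 0.65 in Diff cells (adjusted p = 0.00110). It was higher in Diff cells than in GSCs by 1.70 (adjusted p = 7.70e-06). GATA2, the endothelial member, fell by 1.03 in Diff cells against U87 (adjusted p = 0.000638), to between 0.402 and 0.584 TPM. KLF2, a flow-responsive repressor of EDN1 in endothelium, measured between 26.0 and 27.5 TPM in U87, between 4.17 and 4.48 TPM in GSCs and between 9.84 and 16.8 TPM in Diff cells. KLF2 fell by 2.39 in GSCs (adjusted p = 3.79e-06), and the order of its groups was the reverse of that of EDN1. KLF4 fell by 1.36 in GSCs (adjusted p = 0.000375) and by 1.72 in Diff cells (adjusted p = 0.000122). The hypoxia factor genes differed in direction in GSCs against U87. ARNT rose by 0.78 (adjusted p = 1.07e-05), EPAS1 fell by 0.38 (adjusted p = 0.00215) and HIF1A had a difference of -0.14 (adjusted p = 0.301). The median difference over the 26 factors was -0.25 in GSCs and -0.19 in Diff cells against U87. The part of these factors in the EDN1 level was not tested.

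Several genes on either side of EDN1 on chromosome 6 rose against U87, by far less than the difference of EDN1. HIVEP1, the next protein-coding gene upstream and a zinc finger factor, measured 11.7, 13.1 and 10.7 TPM in U87, 40.0, 38.8 and 43.4 TPM in GSCs and 36.5, 33.2 and 34.8 TPM in Diff cells. It rose by 1.70 in GSCs (adjusted p = 7.28e-07) and by 1.49 in Diff cells (adjusted p = 2.45e-06). ADTRP, the gene beyond it, whose product regulates tissue factor pathway inhibitor, rose by 1.89 in GSCs (adjusted p = 5.79e-06) and by 0.87 in Diff cells (adjusted p = 0.000861), and Diff cells lay below GSCs, by -1.02 (adjusted p = 0.000530). The list of neighbours held these 2 genes upstream of EDN1 and 7 downstream. The next upstream gene, TMEM170B, was outside the list and was looked at after its values were seen. TMEM170B rose by 1.45 in GSCs against U87 (adjusted p = 3.80e-05), had a difference of 0.30 in Diff cells against U87 (adjusted p = 0.126), and Diff cells lay below GSCs, by -1.15 (adjusted p = 0.000350).

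Downstream, PHACTR1, an actin regulator, rose by 0.52 in GSCs (adjusted p = 0.00821) and by 0.75 in Diff cells (adjusted p = 0.00149). TBC1D7, a subunit of the tuberous sclerosis complex, rose by 1.17 in Diff cells (adjusted p = 6.12e-05) and by 0.43 in GSCs (adjusted p = 0.0137), the latter with an adjusted p of 0.0503 without U87 replicate 1. SIRT5, a mitochondrial deacylase, rose by 0.93 in GSCs (adjusted p = 0.000950) and by 0.71 in Diff cells (adjusted p = 0.00569). GFOD1 rose by 0.45 in GSCs (adjusted p = 0.00797), RANBP9 rose by 0.39 in GSCs (adjusted p = 0.0113) and NOL7 fell by 0.49 in GSCs (adjusted p = 0.00391). MCUR1, a regulator of the mitochondrial calcium uniporter, was between 10.8 and 15.9 TPM with overlapping groups. Of the 9 neighbours of the list, 2 were called higher in GSCs and 2 in Diff cells against U87, and 1 was called lower in Diff cells against GSCs. The matching shares over all tested genes were 9.52%, 5.92% and 5.36%.

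Other vasoactive systems were compared with endothelin in a list of 38 genes, of which 16 were tested and 8 were listed at 0 in all libraries. Compared with U87, GSCs had 3 called higher and 4 lower, and Diff cells 3 higher and 6 lower. All tested genes gave 9.52% higher and 7.53% lower in GSCs, and 5.92% and 6.36% in Diff cells. NOS3, the endothelial nitric oxide synthase that endothelin signalling can activate through EDNRB, had the same order of groups as EDN1. It measured 0.127, 0.0729 and 0.0213 TPM in U87, 42.2, 49.8 and 37.5 TPM in GSCs and 5.37, 5.18 and 5.95 TPM in Diff cells. NOS3 rose by 5.35 in GSCs (SE 0.12, adjusted p = 1.55e-08) and by 2.6 in Diff cells (SE 0.12, adjusted p = 8.96e-07). Of its exonic bases, 13.2% lie opposite an exon of ATG9B, and the part of this overlap in the NOS3 values was not tested. GUCY1A2, a subunit of the nitric oxide receptor, was highest in Diff cells, at 16.9 to 18.7 TPM against 2.37 to 2.91 TPM in GSCs and 0.548 to 0.740 TPM in U87, a rise of 3.55 in Diff cells against U87 (adjusted p = 1.13e-07).

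The peptides and receptors that fell included the vasodilator systems of apelin, bradykinin and adrenomedullin. APLN, the gene of apelin, measured 79.2, 78.2 and 75.3 TPM in U87, 6.08, 9.33 and 4.49 TPM in GSCs and 2.77, 3.94 and 4.15 TPM in Diff cells, and fell by 3.41 in GSCs (adjusted p = 2.90e-06) and by 4.10 in Diff cells (adjusted p = 1.55e-06). The bradykinin receptor gene BDKRB1 fell against U87 by 3.82 in GSCs (adjusted p = 4.92e-07) and by 2.18 in Diff cells (adjusted p = 1.88e-05). It was higher in Diff cells than in GSCs by 1.64 (adjusted p = 0.000182). BDKRB2 fell by 1.45 in GSCs (adjusted p = 1.72e-05) and by 2.43 in Diff cells (adjusted p = 1.29e-06). ADM, the gene of adrenomedullin, fell by 2.21 in Diff cells against U87 (adjusted p = 3.80e-06) and by 1.64 against GSCs (adjusted p = 4.08e-05). NPR3, the clearance receptor of natriuretic peptides, fell by 1.21 in GSCs (adjusted p = 7.24e-05), and PTGS2, the inducible cyclooxygenase, fell by 1.57 in Diff cells against U87 (adjusted p = 6.22e-06). The median difference over the 16 tested genes was -0.20 in GSCs and -0.52 in Diff cells against U87.

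**Figure D2:**
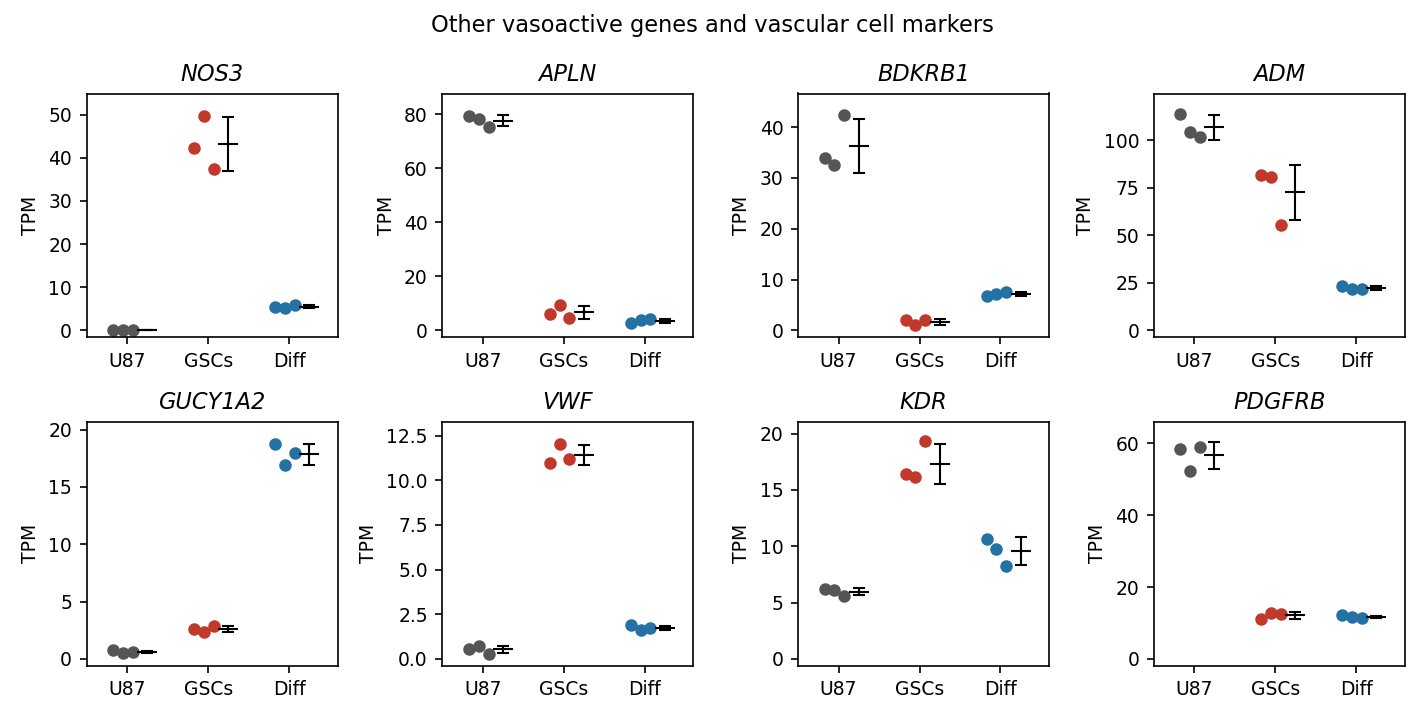
TPM in each of the 9 libraries for 5 vasoactive genes and 3 markers of vascular cells, on linear axes, with points coloured by group and the mean with the SD of 3 libraries beside them. NOS3 and VWF are highest in GSCs, GUCY1A2 in Diff cells, and APLN, BDKRB1, ADM and PDGFRB in U87.

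Since EDN1 is a product of endothelium, markers of other cell types were read beside it. Of 12 endothelial markers, 5 passed the filter, and in GSCs against U87 2 were called higher and none lower. Over all tested genes these shares were 9.52% and 7.53%. VWF, the gene of von Willebrand factor, was between 11 and 12 TPM in GSCs, between 1.64 and 1.88 TPM in Diff cells and between 0.293 and 0.708 TPM in U87, and rose by 3.03 in GSCs (adjusted p = 4.64e-07). KDR, the main receptor of vascular endothelial growth factor, rose by 1.39 in GSCs (adjusted p = 1.31e-05). TEK, the angiopoietin receptor, fell against U87 by 0.69 in GSCs (adjusted p = 0.0187) and by 1.24 in Diff cells (adjusted p = 0.00114). TEK was between 1.86 and 2.90 TPM in U87 and between 0.313 and 0.660 TPM in Diff cells. PECAM1, an adhesion molecule of endothelium, platelets and leukocytes, rose by 0.97 in GSCs (adjusted p = 0.00560), from 1.88 to 3.75 TPM in U87 to between 5.27 and 6.92 TPM, and ROBO4, a guidance receptor of endothelium, rose by 0.49 (adjusted p = 0.0203), a rise of ROBO4 that no longer passed the threshold without GSCs replicate 3 (adjusted p = 0.0519) or U87 replicate 3 (adjusted p = 0.0733). The markers CDH5, FLT1, TIE1 and EMCN did not exceed 0.465, 0.0504, 0.282 and 0.449 TPM in any library. ERG was lower in GSCs, at 0.0768 to 0.198 TPM against 0.758 to 0.991 TPM in U87. CLDN5 and ESAM overlapped between these groups, with lower means in GSCs. The summed level of the 12 markers was between 37.6 and 43.5 TPM in GSCs, between 16.5 and 20.8 TPM in Diff cells and between 14.6 and 17.1 TPM in U87. Without VWF it was between 26.6 and 32.3 TPM in GSCs, and their part in the EDN1 level was not tested.

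Markers of pericytes and smooth muscle, the usual site of EDNRA, were read beside the receptor. Of 10 markers, 8 were tested, and 2 were called lower in GSCs and 3 in Diff cells against U87. Among all tested genes, 7.53% and 6.36% were called lower. NOTCH3 fell by 3.13 in GSCs (adjusted p = 1.23e-07) and by 5.76 in Diff cells (adjusted p = 1.86e-08), PDGFRB fell by 2.14 in GSCs (adjusted p = 1.39e-07) and by 2.18 in Diff cells (adjusted p = 2.03e-07), and CSPG4 fell by 1.31 in Diff cells (adjusted p = 3.79e-05). Not all markers fell. CNN1, the gene of the smooth muscle protein calponin, rose in Diff cells by 0.75 against U87 (adjusted p = 0.00803) and by 1.20 against GSCs (adjusted p = 0.000907). ACTA2, smooth muscle actin, fell by 0.70 in GSCs (adjusted p = 0.000573), but at 15.9 to 17.9 TPM in Diff cells it overlapped the 14.8 to 19.5 TPM of U87, and RGS5 was between 2.94 and 5.25 TPM with overlapping groups. The summed level of the 10 markers was between 236 and 253 TPM in U87, between 81.5 and 99.3 TPM in GSCs and between 76.3 and 78.6 TPM in Diff cells, and its part in the fall of EDNRA was not tested. Of 7 leukocyte markers 1 was tested and none was called, and they summed to between 2.07 and 3.78 TPM in all libraries. All 9 libraries came from U87 or lines derived from it, so the marker levels are not counts of vascular cells or leukocytes. In bulk RNA, fewer cells that express a gene and less of its RNA per cell cannot be told apart.

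The profile of EDN1 over the 9 libraries was compared with those of 12181 other tested protein-coding genes by the distance between log2(TPM + 1) values centred on the U87 mean. FBLN5, a matrix protein of elastic fibres, was nearest, with a distance of 1.08 and r = 0.99 over 9 libraries. It measured between 0.506 and 0.779 TPM in U87, between 141 and 142 TPM in GSCs and between 45.2 and 49.2 TPM in Diff cells. The next were MMP3, the protease stromelysin 1, at a distance of 2.31, the retinol dehydrogenase gene RDH8 at 2.46, the germline helicase gene TDRD9 at 2.79, PSG3 at 3.07, SLC22A25 at 3.20, PSG1 at 3.75, BEX1 at 3.77, DIRAS2 at 3.84 and the cell death gene HRK at 3.94. MMP3 stayed closer to its GSCs level in Diff cells than EDN1 did, at 329 to 402 TPM against 477 to 582 TPM in GSCs. TDRD9 fell back further, from between 82.6 and 85.6 TPM in GSCs to between 8.32 and 9.25 TPM in Diff cells. PSG1 and PSG3 belong to a family of near-identical genes between which reads can be split, so their levels are uncertain. A correlation alone separates few genes here, since 1319 of the 12181 genes had r above 0.9 with EDN1 and all points share 3 groups of libraries. Nor is the shape shared by the nearest genes a result, since they were picked for it in these same libraries.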

How the data were processed

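Total RNA of 9 U87 libraries was depleted of ribosomal RNA, made into directional libraries and sequenced in pairs, per the labels; the study's methods describe oligo(dT) selection instead. The submitters' processing notes name FastQC 0.11.9, Trimmomatic 0.39, HISAT2 2.2.1, featureCounts 2.0.5, R 4.2.0 and GRCh38. The annotation and the strand setting are not given in the sources used here. The authors deposited log2(TPM + 1) values for 60606 genes; back-transformed, each library sums to 1000000 TPM, so depth cannot be recovered.

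All 9 libraries entered 1 limma 3.58.1 fit (R 4.3.3) with group as the only term and a mean-variance trend, over 22909 genes with a mean above 1 TPM. On simulated data for GSCs against U87, with 22909 genes, 177 of the 200 genes given a log2 difference of 2 and 6 other genes were called. Tests, filters, scalings, pseudocounts and single libraries were varied. EDN1 received no p-value.

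The 4 genes and the 15 gene lists were chosen with earlier results of these data known. From the lists of ligands, receptors, converting and degrading enzymes and neighbours every gene was named; from the others, up to 5 called genes per comparison with the largest differences were named; and the 10 protein-coding genes nearest to EDN1. FURIN, SOX2, PROM1, PECAM1, ROBO4, CDH5, FLT1, TIE1, EMCN, ACTA2, RGS5, FOSL1, FOSL2, JUN, JUND and TMEM170B fall outside this rule and were named after their values were seen. The same holds for FOSB, JUNB, HIF1A, EPAS1, ARNT, ERG, CLDN5 and ESAM. Gene positions are from GENCODE 29, and promoter sequence, gene order and gene types are from RefSeq (GRCh38.p14). Replicate numbers did not pair the libraries.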

Additional observations from a re-analysis of the deposited data

How the results depend on the processing

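The falls of EDNRA and ECE1 against U87, and of EDNRA in Diff cells against GSCs, kept their direction and stayed past the threshold under all 19 alternatives. EDNRA ranged from -0.86 to -0.62 in GSCs against U87, from -1.39 to -1.17 in Diff cells against U87 and from -0.64 to -0.40 in Diff cells against GSCs (highest adjusted p = 0.0478). ECE1 ranged from -0.90 to -0.81 and from -0.85 to -0.77 against U87; its difference between Diff cells and GSCs never passed the threshold and ranged from -0.0026, without GSCs replicate 3, to 0.0846 without single libraries. With the filter removed, EDNRB passed the threshold at -0.207 in GSCs and -0.219 in Diff cells against U87. The EDN1 mean became 307.6 TPM in GSCs and 62.27 TPM in Diff cells when mitochondrial genes and RN7SL1 were left out before rescaling, which raises every remaining gene. Called genes numbered 3908, 2812 and 1836 in GSCs against U87, Diff cells against U87 and Diff cells against GSCs; they numbered 2254, 1583 and 1038 with a filter at 5 TPM, by construction with fewer genes tested, and 11129, 9024 and 7982 at an adjusted p under 0.05 alone. Of the 10 genes nearest to EDN1 by distance, 2 were among the 10 with the highest Pearson r. The summed endothelial level in GSCs had a median of 26.91 TPM without VWF, an alternative chosen after seeing the data. Same-numbered libraries deviated together with r between -0.0416 and 0.0489, so they share only a number; with the replicate block 3917, 2810 and 1831 genes were called. The adjusted p of GFOD1 in Diff cells against U87 rose above 0.05 with the replicate block and without any single Diff or U87 library. A level below about 1 TPM, as for EDNRB, cannot be weighed without the depth.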
